A study of Mus musculus with 4 samples.

Results

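Spatial transcriptomic counts were examined for 7 transcripts: Malat1, Meg3, Snhg11, Miat, Neat1, Gm42418 and AC149090.1. They are 7 of the 32285 genes in the feature list, and all 7 were counted in all 4 sections. Malat1, Meg3, Snhg11, Miat and Neat1 were chosen by name as abundant long noncoding RNAs with their UMI counts in these sections known, and Gm42418 and AC149090.1 were chosen by their measured difference between trained and untrained mice. For that pair, the difference between conditions is given below as a description, without a p-value.

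The sections were coronal slices through the dorsal hippocampus of 4 adult male ArcCreERT2::eYFPflx mice on a C57BL/6 background, 1 section a mouse, placed on an array whose spots each capture polyadenylated RNA from a small area that can hold several cells or parts of cells. Cre in this line is made under the control of Arc, an activity-induced gene, and acts only while tamoxifen is present. Cells active near the time of the 4-hydroxytamoxifen dose therefore go on to make eYFP. The 2 trained mice (trained 1 and trained 2) had learned to avoid a shock zone on a rotating arena, the active place avoidance task, and the 2 untrained mice (untrained 1 and untrained 2) had been on the same arena with no shock. All 4 mice carried the same alleles, received 4-hydroxytamoxifen, and were euthanized 3 days after the memory retention test.

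The 4 sections held 10940 spots over tissue, between 2359 and 3055 a section, and between 3560294 and 10330015 UMIs a section, where a UMI (unique molecular identifier) is the tag of a captured RNA molecule. The median spot held 1936 UMIs in trained 1, 2493 in trained 2, 1048 in untrained 1 and 1851 in untrained 2. Trained 2 stood apart: 6.83% of its UMIs came from mitochondrially encoded genes, against 11.6% to 12.2% in the other sections. The 7 transcripts together made up 0.316%, 0.324%, 0.354% and 0.280% of the UMIs of trained 1, trained 2, untrained 1 and untrained 2. With 1 section a mouse and 2 mice a condition, p-values between conditions rest on 4 sections. The spread behind them is in large part pooled over genes, with prior degrees of freedom of 14.5 to 77.3 in the areas compared. Regional p-values measure the spread of region sums after the level of each section is taken out, and these sums come from the same 4 mice. Array barcodes are positions, so the 1330 barcodes found in all 4 sections mark shared positions and not shared cells.

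Long noncoding RNAs are transcripts with no known protein product, and many are kept in the nucleus. Malat1 is a nuclear RNA of splicing speckles, and its neighbor gene Neat1 makes the RNA scaffold of another nuclear body, the paraspeckle. Meg3 is transcribed from the maternal copy of an imprinted domain, Miat is a nuclear RNA found in neurons, and Snhg11 is a host gene for small nucleolar RNAs. Gm42418 is a gene model laid over a copy of the 18S ribosomal RNA, the RNA of the small ribosomal subunit. AC149090.1 is a gene model with sequence related to Pisd, which encodes the mitochondrial enzyme that makes phosphatidylethanolamine.

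In the mouse build GRCm38, Malat1 lies at chr19:5795690-5802672 on the minus strand and Neat1 at chr19:5824708-5845478 on the same strand. Meg3 lies at chr12:109541001-109571726 on the plus strand, Snhg11 at chr2:158375638-158386145 on the plus strand, and Miat at chr5:112213228-112229395 on the minus strand. The annotation classes Malat1, Meg3, Miat, Neat1 and Gm42418 as long intergenic noncoding RNAs, and Snhg11 and AC149090.1 as protein-coding. Gm42418 lies at chr17:39846958-39848788 on the plus strand. Of its 1831 bases, 1245 (68.0%) overlap the RefSeq entry Rn18s-rs5, an 18S-related sequence. A shorter gene model, AY036118, lies wholly inside Gm42418 on the opposite strand and covers 923 of its bases. AC149090.1 is on the unplaced scaffold JH584304.1:52190-59690 on the minus strand, and 7016 of its 7501 bases (93.5%) overlap the RefSeq entry Pisd-ps3, a Pisd pseudogene. The listed name "rRNA-like" therefore has an annotated ribosomal RNA beneath it for Gm42418 but not for AC149090.1. Of the 31-base words of the AC149090.1 transcript, 40.6% occur in another gene's transcript, 22.1% in Pisd-ps1, 21.5% in Pisd and 9.08% in Pisd-ps2, so its counts are uncertain wherever reads could be shared. The corresponding share was 0% for Gm42418 and between 0.854% and 6.58% for the other 5 transcripts. Words were compared only in the sense of each transcript and without RefSeq entries. The 0% for Gm42418 therefore does not cover sequence shared with AY036118 on the opposite strand or with Rn18s-rs5.

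Because the assay captures RNA on a poly-dT primer, the longest run of A inside each spliced transcript is shown for Malat1, Gm42418 and AC149090.1, the transcripts whose differences between sections or positions are described below. Each is printed in the sense of the transcript with 25 bases on either side, from the GRCm38 sequence, and capitals mark the run. That of Malat1 (chr19:5795963-5796024, minus strand) is 12 long and ends 298 bases before the annotated end of the transcript, and that of Gm42418 (chr17:39847142-39847197, plus strand) is 6 long. The run of AC149090.1 (JH584304.1:58669-58734, minus strand) is 16 long.
Malat1: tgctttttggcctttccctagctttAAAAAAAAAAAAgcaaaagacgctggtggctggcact
Gm42418: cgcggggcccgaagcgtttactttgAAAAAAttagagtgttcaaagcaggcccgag
AC149090.1: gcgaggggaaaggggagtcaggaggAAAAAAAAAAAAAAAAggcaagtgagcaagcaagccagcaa
The longest runs in Snhg11, Neat1 and Miat are 8, 7 and 4 bases. Whether these runs served as capture sites was not tested.

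Over whole sections, levels are given as UMIs per 1000000 UMIs of the section (CPM), a scale that counts captured molecules and is not divided by transcript length. Meg3 and Snhg11 were the transcripts of the list with high counts. Meg3 stood at 1033, 1293, 1236 and 935 CPM in trained 1, trained 2, untrained 1 and untrained 2, ranking 75th, 59th, 52nd and 88th of all genes by UMIs. Snhg11 stood at 1017, 1199, 1234 and 880.0 CPM, ranking 77th, 64th, 53rd and 100th. Both had their higher levels in trained 2 and untrained 1, 1 mouse of each condition. A Meg3 UMI was found in 64.3% to 85.0% of the spots of a section.

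The name "abundant" did not describe Malat1, Miat and Neat1 in these counts. Malat1 stood at 114, 98.1, 106 and 99.1 CPM and ranked between 1580th and 2047th. Miat stood at 91.6, 106, 128 and 101 CPM, and ranked between 1371st and 2021st. Neat1 stood at 61.0, 103, 47.2 and 47.6 CPM, with trained 2 the highest, and ranked between 1918th and 4086th.

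Gm42418 stood at 509 CPM in trained 1, 199.6 in trained 2, 647 in untrained 1 and 597 in untrained 2, ranking 242nd, 856th, 150th and 187th. Trained 2 was far below the other 3 sections. AC149090.1 stood at 328, 237, 145 and 137 CPM and ranked 451st, 707th, 1163rd and 1259th, so that both trained sections lay above both untrained ones. The order of Gm42418 over the sections was the reverse of the order of their total UMIs, which were 7119995, 10330015, 3560294 and 6581748, and AC149090.1 followed neither order. With 4 sections no relation between them was tested.

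Regional levels were obtained by assigning spots to 13 regions from marker genes that include none of the 7 transcripts, and summing UMIs over the spots of a region in each section. Of the 10940 spots, 4118 were left unassigned. The 11 regions with at least 20 spots in every section were compared. In trained 1 and trained 2 every marker of each region was higher there than elsewhere in the section, and in 7 of the 26 regions of the untrained sections at least 1 marker was not. Choroid plexus of trained 2, with 21 spots, held its markers at a summed 36453 CPM against 108322 to 198843 in the other sections. CA3 pyramidal (12 spots in untrained 1) and ependymal lining (10) were too small to compare. Each region was tested against the mean of the other regions with edgeR, with the section as a block, over 7817 genes.

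**Figure D1:**
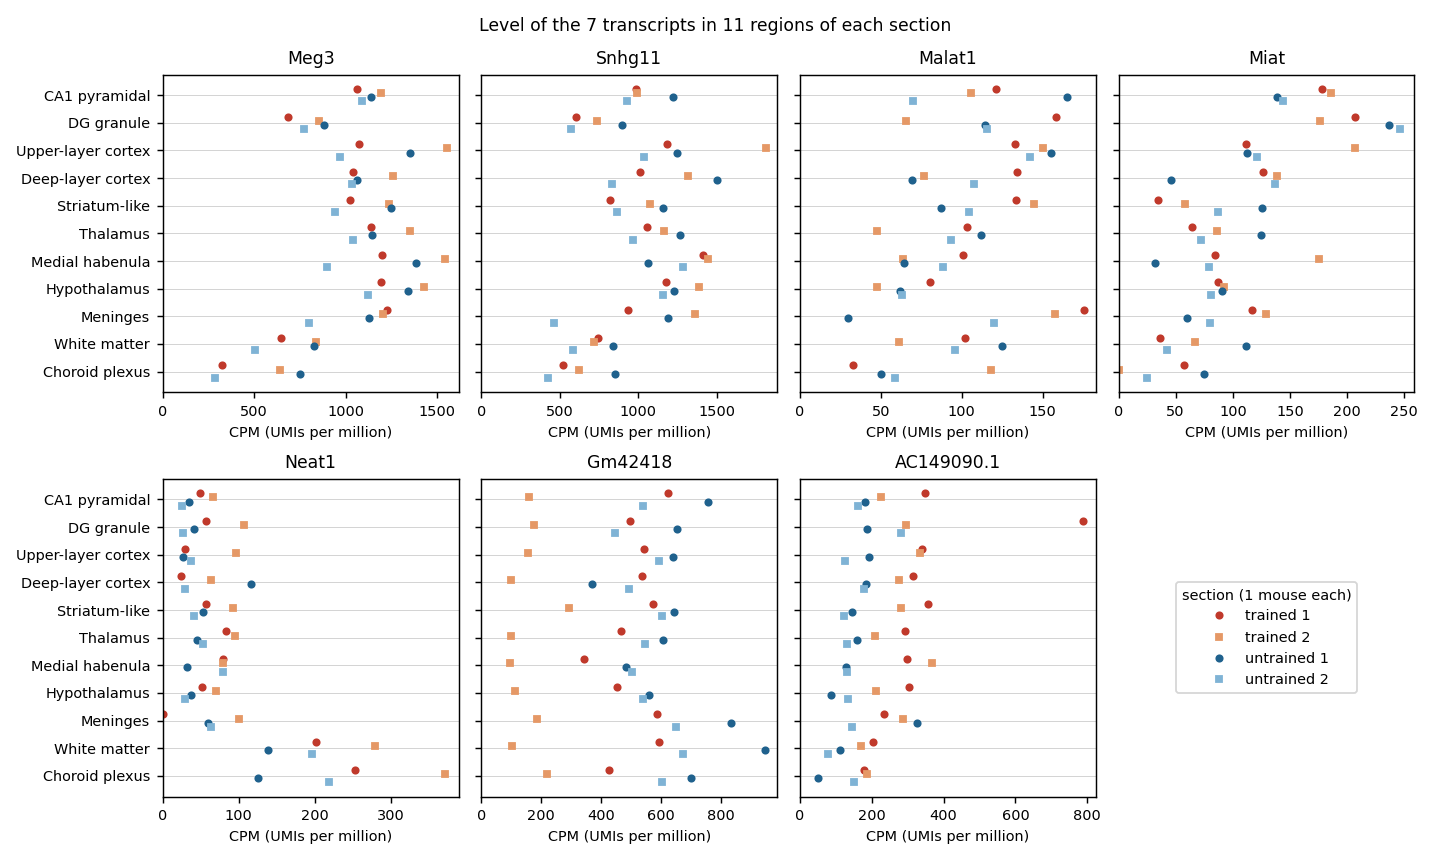
Level of each transcript (CPM of the region's UMIs, linear axis from 0) in 11 regions, 1 point a section, with trained sections in red and orange and untrained sections in blue. Neat1 is highest in choroid plexus and white matter in all 4 sections, Miat is high in DG granule, Meg3 and Snhg11 are low in choroid plexus and white matter, and Gm42418 of trained 2 lies below the other 3 sections in every region.

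The background rate of such regional calls is high. Of all genes tested, 16.3% were called for CA1 pyramidal, 19.5% for DG granule, 23.1% for upper-layer cortex, 19.2% for deep-layer cortex and 17.4% for the striatum-like region. The share was 32.6% for thalamus, 10.6% for medial habenula, 25.7% for hypothalamus, 1.69% for meninges, 23.2% for white matter and 16.1% for choroid plexus. For the 7 transcripts, 35 of 77 pairs of transcript and region were called at an adjusted p under 0.05. Since spots mix cells, a lower level in a region can come from fewer cells of a type or from less RNA per cell, and these cannot be told apart.

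Neat1, the paraspeckle RNA, and Miat had wide regional ranges. In white matter, the region of oligodendrocyte markers, it stood at 202, 279, 139 and 197 CPM in trained 1, trained 2, untrained 1 and untrained 2. In choroid plexus, the secretory epithelium of the ventricles, it stood at 253, 371, 125 and 218 CPM. In each section these were the 2 highest of the 11 regions. Neat1 was higher in choroid plexus by a log2 difference of 2.22 (SE 0.22, edgeR adjusted p = 1.7e-15) and in white matter by 1.73 (SE 0.12, edgeR adjusted p = 1.1e-24). It was lower in deep-layer cortex (log2 difference -0.97), CA1 pyramidal (-0.78), upper-layer cortex (-0.74) and hypothalamus (-0.69). The call in CA1 pyramidal was lost without trained 2 or untrained 2 (edgeR adjusted p = 0.058 and 0.082), at differences of -0.81 and -0.64. The call in upper-layer cortex was lost without trained 1 (-0.54, edgeR adjusted p = 0.055). The ratio of its highest to its lowest region mean was 5.55, with CA1 pyramidal at 43.6 ± 17.9 CPM (SD, n = 4) and choroid plexus at 242 ± 102. The same ratio was 5.51 for Miat, whose lowest region, choroid plexus, includes a count of 0. Choroid plexus and white matter, at 204 ± 57.4, did not differ beyond that spread, and the other regions, at means of 43.6 to 69.2 CPM, overlapped in range. In meninges of trained 1, 0 of 17085 UMIs were Neat1, which allows a level of up to 176 CPM.

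Miat was ordered differently, with DG granule and CA1 pyramidal the highest region means. In DG granule, the granule cell layer of the dentate gyrus, it stood at 207, 176, 237 and 246.5 CPM, and in CA1 pyramidal at 178, 186, 139 and 144 CPM. The 4 DG granule values lay above those of the striatum-like region (34.3 to 126 CPM) and of white matter (35.9 to 111 CPM) with no overlap. Miat was higher in DG granule by 1.25 (SE 0.16, edgeR adjusted p = 2.6e-10) and in CA1 pyramidal by 0.86 (SE 0.17, edgeR adjusted p = 2.4e-05). Smaller rises passed the test in upper-layer cortex (0.51) and deep-layer cortex (0.41, edgeR adjusted p = 0.047). The first was lost without trained 2 (0.36, edgeR adjusted p = 0.10). The second was lost without trained 1, trained 2 or untrained 2 (edgeR adjusted p = 0.16, 0.11 and 0.20), at rises of 0.38, 0.49 and 0.35. Miat fell by 1.2 in choroid plexus, by 0.74 in white matter and by 0.60 in the striatum-like region on the log2 scale. In choroid plexus the call was lost without trained 2 (-0.82, edgeR adjusted p = 0.16) or untrained 2 (-1.03, 0.17), and in the striatum-like region without trained 1 or trained 2 (-0.38 in both, edgeR adjusted p = 0.21 and 0.23). In choroid plexus of trained 2, 0 of 59336 UMIs were Miat, which allows a level of up to 50.6 CPM.

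Meg3 and Snhg11 were spread over all neuronal regions. Meg3 was lowest in choroid plexus, at 327, 640, 750.0 and 285 CPM, and next lowest in white matter, at 649, 841, 826.5 and 506 CPM. Both regions held less of a list of 5 neuronal genes (Snap25, Syt1, Rbfox3, Stmn2 and Nefl), with summed levels of 1416 to 2800 CPM in choroid plexus and 2723 to 3416 CPM in white matter against 4973 to 6947 CPM in deep-layer cortex. The same list summed to 2815 to 3609 CPM in hypothalamus and 2717 to 3129 CPM in medial habenula, close to white matter, although Meg3 was high in both. The part of that list in the Meg3 levels was not tested. Meg3 fell by 1.05 in choroid plexus (SE 0.14, edgeR adjusted p = 3.1e-10) and by 0.47 in white matter (SE 0.09, edgeR adjusted p = 7.0e-06). It was also lower in DG granule, at 685.5, 853, 881 and 770.3 CPM (log2 difference -0.35), where the call was lost without trained 1 (edgeR adjusted p = 0.067) and the difference was -0.011 after all sums were thinned to the smallest total. Rises of 0.39 in hypothalamus, 0.32 in upper-layer cortex, 0.25 in thalamus and 0.23 in the striatum-like region passed the test, while region means over these ranged only from 1113 to 1270.3 CPM. The rises in thalamus and the striatum-like region were lost without trained 1 (edgeR adjusted p = 0.075 and 0.19) or untrained 2 (0.067 and 0.10), at rises of 0.20 to 0.25. After thinning, choroid plexus and white matter were the Meg3 calls left. The thinned rises were 0.47 in hypothalamus and 0.33 in thalamus, larger than before, 0.17 in upper-layer cortex, and -0.031 in the striatum-like region. Hypothalamus, medial habenula and upper-layer cortex, the 3 highest means, did not differ beyond the spread between sections.

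Snhg11 was likewise low in choroid plexus (log2 difference -0.62), DG granule (-0.57) and white matter (-0.41). In DG granule it stood at 600.3, 734, 897 and 570.0 CPM, below the same section's upper-layer cortex, at 1181, 1817, 1247 and 1040 CPM, in all 4 sections. It was higher in upper-layer cortex by 0.45 (SE 0.08, edgeR adjusted p = 6.1e-06), in medial habenula by 0.40 and in hypothalamus by 0.38. The medial habenula call was lost without trained 1 or untrained 2 (0.32 in both, edgeR adjusted p = 0.15 and 0.13). After thinning, upper-layer cortex was the sole Snhg11 call left: medial habenula and hypothalamus were both at 0.16, white matter at -0.26 (edgeR adjusted p = 0.46), and choroid plexus and DG granule both at -0.55 (0.058 and 0.078). Upper-layer cortex (1321 ± 341 CPM) and medial habenula (1302 ± 172) did not differ beyond their spread.

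Malat1 rested on few UMIs, between 1 and 139 for a region of a section. In upper-layer cortex it stood at 133, 150.2, 155 and 142 CPM, which was 145 ± 9.67 CPM (SD, n = 4) and its highest region mean. In hypothalamus it stood at 80.4, 47.8, 61.7 and 63.0 CPM. The 4 values of upper-layer cortex lay above the 4 of hypothalamus. Malat1 was higher in upper-layer cortex by 0.58 (SE 0.14, edgeR adjusted p = 5.2e-04) and in the striatum-like region by 0.51 (SE 0.13, edgeR adjusted p = 0.0022), and lower in hypothalamus by a log2 difference of -0.70 (SE 0.15, edgeR adjusted p = 1.5e-04). Without trained 2, the rise in the striatum-like region was 0.27 and missed the threshold (edgeR adjusted p = 0.32).

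AC149090.1 had its highest region mean in DG granule, at 787, 295, 188 and 281 CPM. Trained 1 was far above the other 3 sections there. DG granule was the highest region in trained 1 and untrained 2, but in trained 2 medial habenula (366 CPM) and upper-layer cortex (334) were higher, and in untrained 1 meninges (327) and upper-layer cortex (194). The rise over the other regions was 0.90 (SE 0.12, edgeR adjusted p = 2.1e-10), and leaving out any 1 section gave between 0.59 and 1.07. In white matter, AC149090.1 stood at 204, 169, 111 and 78.8 CPM and was lower there (log2 difference -0.62, SE 0.12, edgeR adjusted p = 2.6e-05). A smaller difference in hypothalamus (-0.27) passed at an edgeR adjusted p of 0.045 and missed the threshold when trained 2, untrained 1 or untrained 2 was left out (edgeR adjusted p = 0.21, 0.18 and 0.10).

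Gm42418 was the most even of the 7, with a ratio of 1.62 between its highest and lowest region mean. It was lower in medial habenula, at 342, 95.6, 484 and 502 CPM (log2 difference -0.60, SE 0.17, edgeR adjusted p = 0.0087), and missed the threshold there without trained 1 (-0.49, edgeR adjusted p = 0.20). The rise in the striatum-like region, at 571, 291, 643 and 602 CPM, was 0.43 (SE 0.10, edgeR adjusted p = 3.6e-04). Without trained 2 it was 0.16 and missed the threshold (edgeR adjusted p = 0.28). The difference in thalamus (-0.23, edgeR adjusted p = 0.049) missed the threshold without any 1 of the sections, at values between -0.26 and -0.13. After thinning, none of the 3 calls was left (medial habenula -0.39, striatum-like 0.22 and thalamus -0.12), nor without the block of section (-0.64, 0.27 and -0.14).

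Other noncoding genes were followed as a list of 40, of which 24 had enough UMIs for the regional test. In hypothalamus 8 were higher and 4 lower, in thalamus 5 and 6, in upper-layer cortex 6 and 3, and in DG granule 4 and 4. In CA1 pyramidal 3 were higher and 1 lower, led by Pantr1 at a log2 difference of 1.90. In white matter 2 were higher (Sox2ot at 2.05 and Gas5 at 0.45) and 2 lower, and in choroid plexus 1 was higher and 4 were lower. Rian, which lies in the imprinted domain of Meg3, had the same sign as Meg3 in the 6 regions where both passed the test: it was lower in choroid plexus (-0.72), DG granule (-0.44) and white matter (-0.34), and higher in hypothalamus (0.60), upper-layer cortex (0.40) and thalamus (0.31). The median log2 difference of the list lay between -0.16 and 0.19 over the 11 regions, against -0.08 to 0.02 for all genes tested.

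The genes with the most similar profile over the 44 sums of 11 regions and 4 sections, centered on each section, are given as a description, since these sums share libraries and depth. For Meg3 they were Cadm3, Syp and Eno2 (Pearson r = 0.86, 0.81 and 0.79), of which Syp encodes the synaptic vesicle protein synaptophysin and Eno2 a neuronal enolase. For Snhg11 they were Gng3, Scg5 and Tspyl4 (0.79, 0.77 and 0.75). For Miat they were Paqr9, Ntrk3, a neurotrophin receptor, and Epha7, an ephrin receptor (0.77, 0.76 and 0.75). For Neat1 they were Golga7, Slc44a1, a choline transporter, and Ctnna1, a catenin (0.86, 0.85 and 0.85). For AC149090.1 they were Sumo2, Cbx6 and Iqsec2 (0.77, 0.75 and 0.70). The likeness was lower for Malat1 (Commd2, Srgap3 and Pou3f3, at 0.66, 0.65 and 0.65) and for Gm42418 (Actb, mt-Nd5 and C1qb, at 0.70, 0.69 and 0.66).

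Training was compared in the 2 trained against the 2 untrained sections within 4 areas: the hippocampal layers (CA1, CA3 and DG), cortex, thalamus and white matter. Cortex joined upper and deep layers in unequal parts, with 192 upper and 112 deep spots in trained 1, 104 and 170 in trained 2, 122 and 27 in untrained 1, and 210 and 103 in untrained 2. The part of that mix in the cortex differences was not tested. The question was whether any of the 7 transcripts differed 3 days after the retention test. Few genes of any kind passed the test with edgeR: 1 of 8699 in the hippocampal layers (0.0115%), 0 of 9693 in cortex (0%), 6 of 9437 in thalamus (0.0636%) and 18 of 6304 in white matter (0.286%). In cortex 517 genes had an unadjusted p under 0.05. Of the 7 transcripts, none was called in the hippocampal layers, cortex or thalamus, and 1, Gm42418, was called in white matter. DESeq2 called none of the 7 in any area. As Gm42418 was listed for its difference between conditions, nothing is read from that count.

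**Figure D2:**
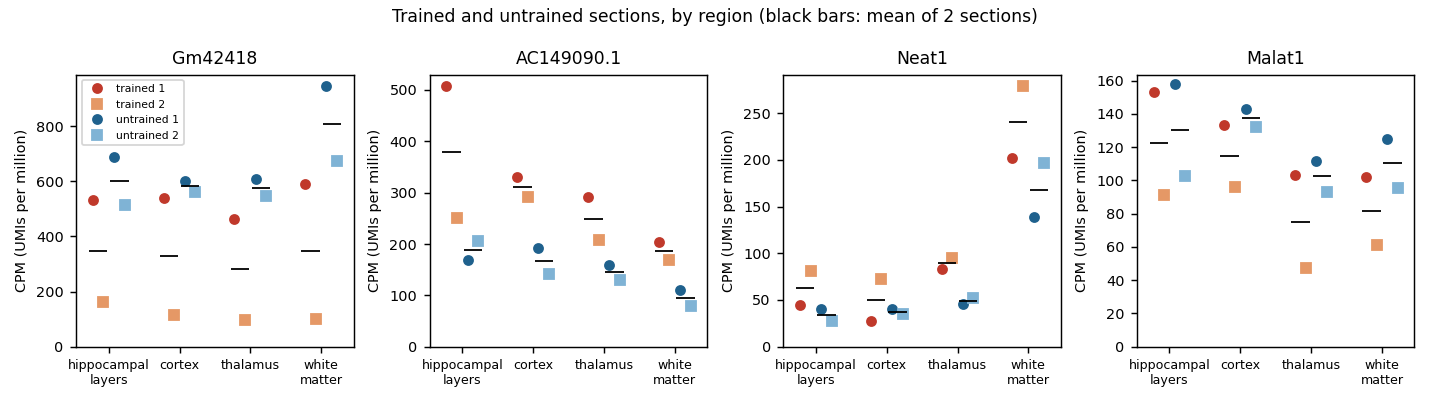
Level of Gm42418, AC149090.1, Neat1 and Malat1 (CPM of the area's UMIs, linear axis from 0) in 4 areas, 1 point a section, with black bars at the mean of the 2 sections of a condition. Gm42418 of trained 2 lies far below the other 3 sections in each area, and both AC149090.1 values of trained mice lie above both of untrained mice.

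AC149090.1 was higher in trained than in untrained sections in each area. In the hippocampal layers it stood at 509 and 251 CPM in the trained and 169 and 207 CPM in the untrained sections. In thalamus the trained sections stood at 291 and 208 CPM and the untrained sections at 160 (159.8) and 130 (129.9) CPM. No pair of trained and untrained values overlapped in any of the 4 areas. The log2 difference was 0.97 (SE 0.24) in the hippocampal layers, 0.84 (SE 0.20) in cortex, 0.74 (SE 0.20) in thalamus and 0.97 (SE 0.26) in white matter. Without trained 1 these were 0.40, 0.67, 0.44 and 0.82, and without trained 2 they were 1.37, 1.03, 1.04 and 1.2. Over the 11 regions, both trained sections were above both untrained sections in 10, the exception being meninges. Between 15.7% and 25.6% of all genes showed that order in any 1 region. The regions come from the same 4 sections, so that share is no background for a count over regions. Pisd, whose transcript shares sequence with AC149090.1, stood at 39.0, 44.4, 38.2 and 44.2 CPM over whole sections, with no such order.

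Gm42418 was lower in the trained sections, and trained 2 carried most of the difference. In white matter it stood at 591 and 101 CPM in the trained and 945 and 672 CPM in the untrained sections. In the hippocampal layers it stood at 532 and 163 CPM against 687.5 and 513 CPM, so that trained 1 lay between the untrained sections. The log2 difference was -0.79 (SE 0.31) in the hippocampal layers, -0.91 (SE 0.43) in cortex, -1.12 (SE 0.33) in thalamus and -1.36 (SE 0.29) in white matter. Without trained 2 these values were -0.16, -0.13, -0.31 and -0.41, and without trained 1 they were -1.81, -2.54, -2.67 and -3.06. Both trained sections lay below both untrained sections in 8 of 11 regions, while 11.4% to 17.1% of all genes did in any 1 region. Here too that share is no background for a count over regions.

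Genes often listed with Gm42418 for taking up ribosomal RNA reads were 12, of which 8 could be tested in the hippocampal layers, cortex and thalamus and 6 in white matter. AY036118, the model on the opposite strand of Gm42418, was lower in trained sections in thalamus (log2 difference -2.03, SE 0.41, edgeR adjusted p = 0.044) and in white matter (-3.23, SE 0.60, edgeR adjusted p = 0.0016). It stood at 11.4 and 7.84 CPM in trained 1 and trained 2 and at 70.2 and 29.6 CPM in untrained 1 and untrained 2, over whole sections, so that here trained 1 was low as well. Because the 2 models overlap, reads of one may have been counted for the other. Lars2, the mitochondrial leucyl-tRNA synthetase, was lower in white matter (-1.82, SE 0.37, edgeR adjusted p = 0.0063), at 55.2, 18.5, 104 and 104 CPM. None of the 12 was called in the hippocampal layers or cortex. Of the 40 other noncoding genes, 20 to 25 of which were tested in an area, the 1 called was Bc1, a small neuronal RNA made by RNA polymerase III, which was lower in white matter (-1.45, SE 0.35, edgeR adjusted p = 0.032) at 25211, 7801, 56905 and 30247 CPM. White matter also differed in a list of 7 interneuron genes, all detected, which summed to 3375 and 3649 CPM in the trained and 2153 and 1989 CPM in the untrained sections. The part of these cells in the white matter differences of Gm42418, AC149090.1, Neat1, AY036118, Lars2 and Bc1 was not tested.

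Among the 5 remaining transcripts, the largest difference in a single area was that of Neat1 in the hippocampal layers, and Neat1 did not pass the test in any area. In the hippocampal layers it stood at 44.6 and 81.0 CPM in the trained and 40.4 and 27.2 CPM in the untrained sections, a log2 difference of 1.01 (SE 0.36, edgeR adjusted p = 0.94). In thalamus it stood at 83.3 and 95.3 CPM against 45.7 and 52.5 CPM, a log2 difference of 0.78 (SE 0.22, edgeR adjusted p = 0.34). In white matter the trained values were 202 and 279 CPM and the untrained values 139 and 197 CPM. The trained values lay above the untrained values in these 3 areas and overlapped them in cortex, with 11 to 63 UMIs a section behind the hippocampal values. Both trained sections were above both untrained sections in 7 of the 11 regions, while 15.7% to 25.6% of all genes were in any 1 region. That share is again no background for a count over regions. Counted the same way, Miat had 3 regions above and 2 below, Malat1 2 above, and Meg3 and Snhg11 1 above each. For Neat1 in cortex (0.38) and white matter (0.41) the edgeR adjusted p was 0.92 and 0.74. Without trained 1 the difference in the hippocampal layers was 1.39 and passed the test (edgeR adjusted p = 0.00974), with trained 2 as the sole trained section, and without trained 2 it was 0.48. In the hippocampal layers of trained 2, a list of 7 astrocyte genes summed to 955 CPM against 563 to 581 in the other sections, and 8 microglial genes to 554 against 339 to 423, with every gene of both lists detected. A list of 7 interneuron genes summed to 1488 CPM there against 934 to 1144 in the other sections. The part of these cells in the hippocampal levels of Neat1, Gm42418 and AC149090.1 was not tested.

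Malat1, Meg3, Snhg11 and Miat did not pass the test in any area. For Malat1 the log2 differences were -0.03 (SE 0.26), -0.37 (SE 0.23), -0.58 (SE 0.26) and -0.53 (SE 0.31) in the hippocampal layers, cortex, thalamus and white matter, with edgeR adjusted p values between 0.75 and 0.999. In thalamus Malat1 stood at 103 and 47.4 CPM in the trained and 112 and 93.2 CPM in the untrained sections. Without trained 1 that difference was -1.19 and passed the test (edgeR adjusted p = 8.95e-05), and without trained 2 it was 0.04. For Meg3 the differences lay between -0.06 and 0.14, with standard errors of 0.16 to 0.20, and for Snhg11 between -0.06 and 0.06, with standard errors of 0.17 to 0.20. For Miat they lay between -0.33 and 0.10. Whether the training difference varied between regions was tested with a joint term for region and condition, which called 13 of 7817 genes (0.166%) and none of the 7 transcripts, while 368 genes had an unadjusted p under 0.05.

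Within trained 2, Gm42418 and Malat1 were not evenly spread. Each section was divided into 6 bands of array columns of equal width from its lateral edge (band 1) to its midline side (band 6). In trained 2, Gm42418 stood at 762, 300.3, 149, 115, 98.0 and 158 CPM in bands 1 to 6. In the other sections it went from 573 to 447 CPM in trained 1, from 714 to 594 in untrained 1 and from 680 (679.9) to 544 in untrained 2. In the outer band, Gm42418 of trained 2 was thus the highest of the 4 sections, and in bands 2 to 6 it was below 447 CPM, the lowest band of any other section.

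Malat1 of trained 2 had the same shape, at 314, 148, 89.8, 64.6, 49.7 and 62.9 CPM, while no band of the other sections left the range of 76.2 to 138 CPM. AC149090.1 of trained 2 stayed between 212 and 277 CPM and Meg3 between 1176 and 1495 CPM. For each of 6606 genes with at least 50 UMIs in the outer band and in the 3 inner bands of every section, the log2 ratio of the outer band to the 3 inner bands was taken, and the excess of trained 2 over the mean of the other 3 sections was ranked. Gm42418 ranked 1st, with a ratio of 2.69 on the log2 scale in trained 2 against 0.23, and Malat1 ranked 2nd, with 2.42 against 0.25. The median gene had an excess of 0.04. Dcaf17 ranked 3rd and Bc1 4th, with 2.61 in trained 2 against 0.66, and Lars2 41st. Neat1, AC149090.1, Meg3, Miat and Snhg11 ranked 560th, 1223rd, 2006th, 2091st and 2387th. The section and the bands were chosen after its low Gm42418 level had been seen, so the ranks are a description.

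**Figure D3:**
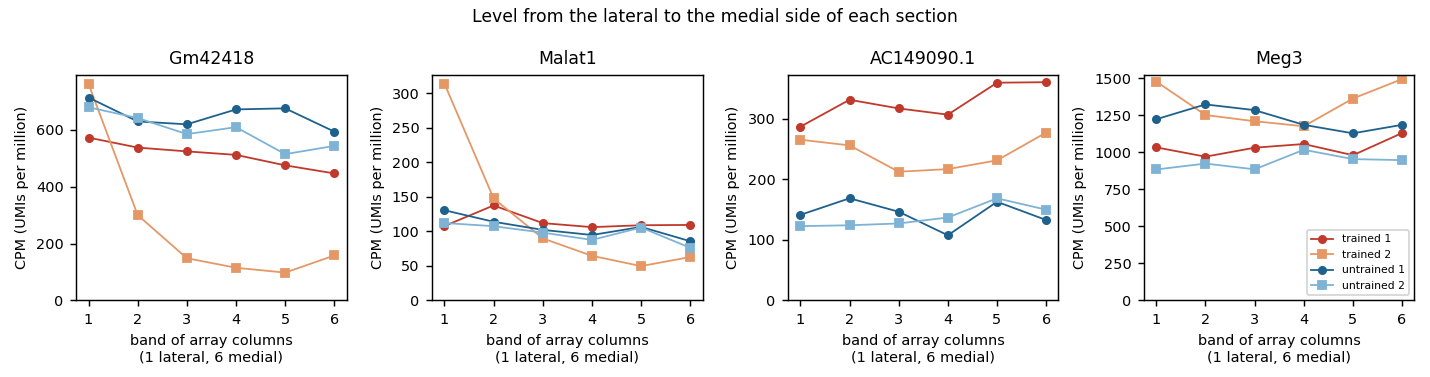
Level of Gm42418, Malat1, AC149090.1 and Meg3 (CPM of the band's UMIs, linear axis from 0) in 6 bands of array columns from lateral (1) to medial (6), 1 line a section. In trained 2, Gm42418 and Malat1 fall from 762 to 158 and from 314 to 62.9 CPM, while the other sections change far less.

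The lateral rise of trained 2 lay largely in unassigned spots. In the unassigned spots of the outer 2 bands, Gm42418 stood at 559, 642, 660.3 and 677 CPM in trained 1, trained 2, untrained 1 and untrained 2, with trained 2 inside the range of the others. In the unassigned spots of the inner 4 bands it stood at 482, 155, 624 and 614 CPM. In the spots of the 13 regions it was 545, 214, 660.0 and 623 CPM in the outer bands and 494, 118, 649 and 548 CPM in the inner bands. Within regions of trained 2, each divided at its own middle, the lateral part held more Gm42418 than the medial part in striatum-like (1.63 times), choroid plexus (1.62), hypothalamus (1.29), upper-layer cortex (1.23), meninges (1.19) and DG granule (1.08), some on fewer than 10 UMIs. It held less in medial habenula (0.527), white matter (0.76), thalamus (0.81), deep-layer cortex (0.854) and CA1 pyramidal (0.949). With the 2 outer bands left out, an alternative chosen after seeing the data, the difference between conditions in white matter was -1.33, against -1.36 with all bands.

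The highest levels lay at the ventral end of the lateral edge. On a grid of 6 by 6 bands, the ventrolateral corner of trained 2 held Gm42418 at 3778 CPM (65 UMIs over 23 spots), and the 2 grid cells beside it at 1561 CPM each. The lowest cell of that section, in its middle, held 58.7 CPM. Over the same grid Gm42418 ranged only from 330.0 to 998 CPM in trained 1, from 512 to 914 in untrained 1 and from 438 to 793 in untrained 2. Malat1 had its highest level of trained 2 in the same corner, at 756 CPM (13 UMIs).

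**Figure D4:**
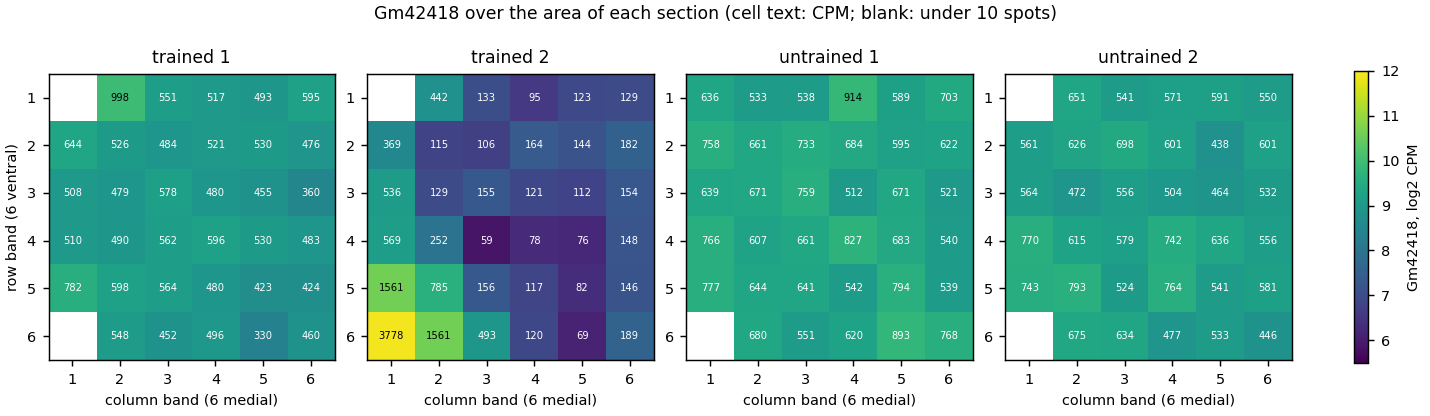
Gm42418 level over the area of each section on a grid of 6 row bands (6 ventral) by 6 column bands (6 medial), with the CPM written in each cell and log2 CPM as color. In trained 2 the level runs from 58.7 CPM in the middle to 3778 CPM at the ventrolateral corner, while the other 3 sections lie between 330.0 and 998 CPM.

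Spot depth moved with that position. Spots of the outer band of trained 2 held on average 1811 UMIs against 2957 to 3932 in its other bands, whereas in the other sections the outer band held 3072, 1938 and 3239 UMIs, among their deepest. The corner cell held 748 UMIs a spot. Counted as UMIs per spot rather than as CPM, Gm42418 of trained 2 still fell, from 1.38 UMIs in band 1 and 1.18 in band 2 to between 0.343 and 0.508 in bands 3 to 6. Over the same bands the 3 other sections went from 1.76, 1.38 and 2.2 UMIs a spot in band 1 to 1.26, 0.711 and 1.16 in band 6. The part of depth in the lateral rise was not tested.

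Within bands 1 to 3, Gm42418 of trained 2 also fell with depth. Spots of each band were divided into 4 parts by their total UMIs. In band 1 of trained 2, Gm42418 stood at 1586, 1269.7, 1127 and 466 CPM from the shallowest to the deepest part, and in band 2 at 1290.1, 710 (709.9), 376 and 139 CPM. In band 3 it stood at 294, 224, 184 and 106 CPM. In bands 4, 5 and 6 of the same section the shallowest part stood at 131, 65.0 and 155 CPM and the deepest at 113, 86.7 and 145 CPM. The deep spots of band 2 thus had a level close to those of the inner bands, and the shallow spots exceeded every part of the other sections.

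**Figure D5:**
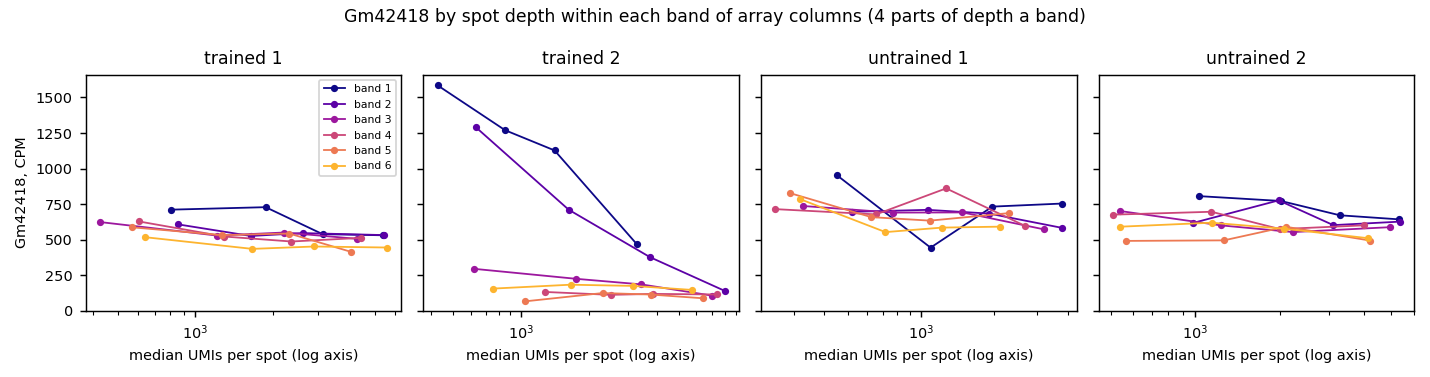
Gm42418 level (CPM, linear axis from 0) against the median UMIs per spot (log axis) of 4 parts of depth within each of 6 column bands, 1 panel a section. In trained 2, bands 1, 2 and 3 fall from 1586 to 466, from 1290.1 to 139 and from 294 to 106 CPM with depth, while bands 4 to 6 and the other sections show no comparable fall.

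Within regions, where spots of one kind are compared, the relation of the 7 transcripts to depth differed by section. Each region of each section was divided into 4 parts by depth, counted in the same way, and the deepest parts were set against the shallowest. The log2 ratio for Gm42418 was -0.11, -0.69, -0.05 and 0.04 in trained 1, trained 2, untrained 1 and untrained 2, and for Malat1 0.13, -0.43, -0.08 and 0.16. In both, trained 2 was the section with the largest fall. For Meg3 the ratio was -0.02, -0.13, 0.33 and 0.37. For Snhg11 it lay between -0.02 and 0.26, for AC149090.1 between -0.08 and 0.31, for Neat1 between -0.41 and 0.57 and for Miat between -0.40 and 1.08, the last on few UMIs. Thinning each spot to 500 UMIs left out the spots with fewer, so depth and the set of spots changed together. The shallowest part went from 449 to 285 spots in trained 1 and from 473 to 388 in trained 2. In untrained 1 it went from 318 to 50 spots, and in untrained 2 from 421 to 255. With spots thinned in this way, trained 2 stood at -1.23 for Gm42418, -0.72 for Malat1 and -0.995 for Neat1. In trained 1, Malat1 turned to -0.48, Neat1 went from -0.31 to 0.59 with 6 UMIs in the shallowest part, and Gm42418 stood at -0.36. In untrained 1, Gm42418 turned to 0.68 and Neat1 to -1.32, with 10 Gm42418 and 2 Neat1 UMIs in the shallowest part. Thinned in the same way, Meg3 stood at 0.044 and 0.090 in untrained 1 and untrained 2. AC149090.1 of untrained 1 went from 0.18 to 1.27 and Miat of untrained 1 from -0.40 to 0.36, with 2 UMIs of each in the shallowest part. With spots divided into 2 parts by depth instead of 4, the 1.08 of Miat in untrained 2 became 0.061.

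Across sections, after centering on each region, the genes most like Gm42418 over the 44 sums were Actb, mt-Atp8 and Ttr (Pearson r = 0.88, 0.87 and 0.86). Actb stood at 1417, 1186, 1439 and 1509 CPM over whole sections, with trained 2 lowest. For AC149090.1 they were Oxt, Glo1 and Pkm (0.73, 0.71 and 0.71). These profiles rest on 4 libraries, so any gene that differs in trained 2 takes part in the first.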

How the data were processed

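Polyadenylated RNA of 4 sections was captured on 10x Visium arrays. The authors deposited UMI counts per spot and gene, not normalized, made with Space Ranger (1.2.2 in the file headers, another version in the study's methods) against mm10; the submitters' processing notes name Cell Ranger 8, STAR and mm39 instead. The 32285 genes are those of the mm10 list. Members and gene lists were chosen with earlier results of these data known.

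Spots were assigned to 13 regions by the mean z score of marker genes, averaged with neighboring spots (weight 0.5), with a minimum score of 0.5, a margin of 0.15 over the second list and connected groups of at least 10 spots. UMIs were summed by region and section. Genes passing filterByExpr were tested with edgeR 4.0.16 (TMM, quasi-likelihood F-test, R 4.3.3), with Benjamini-Hochberg adjustment over all genes tested and a threshold of 0.05. DESeq2 1.42.0, other filters, library sizes, region rules, thinning and leaving out each section were tried as alternatives. The procedure was tested on simulated data. Level errors are SDs over 4 sections; a count of 0 is bounded by 3 counts, covering counting error only. Named beside the 7 transcripts are the 3 genes most like each and, of the lists, those called (up to 6 by p). Levels shown for other genes were chosen after values were seen. Sequences were read from GRCm38 and its annotation.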

Additional observations from a re-analysis of the deposited data

How the results depend on the processing

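The 35 regional calls became 24 without the block of section, 3 when sums were thinned to the smallest total, where of the called transcripts only Meg3, Snhg11 and Gm42418 could still be tested, and 27 to 35 when 1 section was left out. DESeq2 lost Malat1 in the striatum-like region, Miat in choroid plexus and deep-layer cortex, AC149090.1 in hypothalamus and Gm42418 in thalamus. For training, the count of 0 in cortex became 2 without the filter on low counts and 1 after thinning. Without the filter, the 0 in the hippocampal layers became 2 and the 0 in thalamus became 1. All of these added calls were of Gm42418 or AC149090.1, the pair chosen by this difference. The 1 in white matter, Gm42418, became 0 with DESeq2, with regions from the spot alone, after thinning and without the 2 outer bands. With a stricter margin the count became 2, with AC149090.1 added. As the pair was chosen by this difference, nothing is read from these counts. The 0 for differing training effects became 0 to 2 without 1 section. Replicate numbers come from the sample titles, and no pairing of sections is stated. In the hippocampal layers, the deviations of trained 1 and untrained 1 had a correlation of -0.0051 over 8699 genes. That value cannot show whether sections were processed in pairs. With the replicate number as a block the counts were 2 in cortex, 1 in the hippocampal layers, 2 in thalamus and 1 in white matter. All of these were Gm42418 or AC149090.1. Differences near 0 changed sign: Malat1 in the hippocampal layers to 0.039 (regions from the spot alone), 0.043 (stricter margin) and 0.062 (thinned); Meg3 in cortex to 0.067 (plain totals), 0.12 (spot alone), 0.071 (stricter margin) and 0.038 (thinned), and in the striatum-like region to -0.031 (thinned); Miat in cortex to -0.30 (spot alone) and -0.019 (stricter margin); Snhg11 in white matter to -0.013 (DESeq2), -0.00019 (these transcripts, mitochondrial genes, Bc1 and Ttr left out of library sizes), -0.089 (spot alone), -0.054 (spots with at least 500 UMIs) and -0.019 (stricter margin). Without 1 section, training differences ranged for Malat1 from -0.42 to 0.30 in the hippocampal layers and -1.19 to 0.037 in thalamus; for Meg3 from -0.27 to 0.16 in cortex, -0.092 to 0.22 in the hippocampal layers and -0.20 to 0.51 in white matter; for Miat from -0.037 to 0.28 in cortex, -0.75 to 0.028 in thalamus and -1.05 to 0.34 in white matter; for Neat1 from -0.43 to 0.79 in cortex; for Snhg11 from -0.14 to 0.27 in cortex, -0.28 to 0.18 in the hippocampal layers, -0.25 to 0.14 in thalamus and -0.25 to 0.28 in white matter. With 4 bands in place of 6, chosen after seeing the data, the log2 ratio of the outer band in trained 2 was 2.04 for Gm42418 and 1.84 for Malat1. The cause of these changes was not tested. Regions from the spot alone left cortex with 3 sections and 8 regions compared; a lone section is assumed to vary like the others. The low UMI counts of Malat1, Miat and Neat1 limit all their regional values.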
